A study of Saccharomyces cerevisiae with 4 samples.

Results

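The pheromone signalling cascade of *Saccharomyces cerevisiae* was followed through 10 genes: *GPA1*, *STE4*, *STE18*, *STE20*, *STE5*, *STE11*, *STE7*, *FUS3*, *KSS1* and *STE12*. They were taken by symbol from the platform annotation, each with its brightest probe set that names a single gene, and all 10 were found among the 5656 genes that the array measured in this way. All 10 also passed the filter on dim genes, a mean log2 signal of at least 5.07 (a signal of 33.6), which left 5114 genes to be tested. Transcripts of *ccw12*Δ (MEY12A, SEY6210 with *CCW12* disrupted by *URA3*) were compared with those of the wild type SEY6210, with 2 single-colour Affymetrix arrays per strain. *CCW12* encodes a mannoprotein that is bound to the glucan layer of the yeast cell wall. Both strains are haploid *MAT*α cells with auxotrophic *ura3*, *leu2*, *his3*, *trp1* and *lys2* alleles, a *suc2* deletion and a functional *GAL* system, and MEY12A is *URA3* through the disruption. They grew without added pheromone in adenine-supplemented YPD to an optical density of 1, and each array received cRNA from 5 µg of total RNA, pooled from independent preparations. The mutant is represented by 1 strain, so a trait of that strain and an effect of the deletion cannot be told apart.

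In haploid yeast, the pheromone of the opposite mating type binds a G protein-coupled receptor at the cell surface. The receptor releases the βγ dimer of a heterotrimeric G protein, which recruits a scaffold and a p21-activated kinase and thereby starts a cascade of protein kinases. The last kinase of this chain frees a transcription factor from its inhibitors, and genes of cell cycle arrest, polarised growth and cell fusion are induced. Most of these components are present before pheromone arrives, and several are transcribed in haploid cells alone.

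The arrays differed in ways that touch all genes. The median signal of an array lay between 118 and 144 over 9335 probe sets. The 3′ to 5′ ratio of the *ACT1* control probes was highest in wild type replicate 1, at 2.99, and the other arrays ranged from 1.38 to 1.49. The ratios of *SPT15* and *SRB4* were 7.12 and 9.82 on that array, and elsewhere they ranged from 2.87 to 3.69 and from 2.20 to 3.52. The SD of the log2 difference was 0.64 between the wild-type arrays and 0.47 between the *ccw12*Δ arrays, and between wild type replicate 2 and *ccw12*Δ replicate 1 it was 0.61. The deleted gene itself had signals of 24314 and 24118 in the wild type and 4260 and 3919 in *ccw12*Δ. The description of wild type replicate 2 names SEY6211, a *MAT***a** strain, whereas its title and strain label name SEY6210. On that array the summed signal of 4 α-cell markers was 31515, beside 32818 in replicate 1, and that of 6 **a**-cell markers was 355 beside 368. Of the **a**-cell genes, *BAR1*, *AGA2*, *STE2* and *STE6* had signals of 1.2, 14.6, 18.6 and 33.0 there, under the filter level, whereas *MFA1* had 82.8 and *MFA2* 205. In replicate 1 the signals were 1.7 for *BAR1*, 19.2 for *AGA2*, 15.9 for *STE2*, 21.8 for *STE6*, 50.3 for *MFA1* and 259 for *MFA2*. *MFA1*, *STE2* and *STE6* were thus higher on replicate 2, and *BAR1*, *AGA2* and *MFA2* were lower. The α-cell markers *MF(ALPHA)1*, *MF(ALPHA)2*, *STE3* and *SAG1* had signals of 11687, 8124, 2985 and 8718 on replicate 2. On replicate 1 they had 10432, 9246.5, 1840 and 11300. By these markers both arrays read as α cells, and replicate 2 was kept as SEY6210. The median log2 ratio of *ccw12*Δ to the wild type was 0.94 on chromosome II, 0.90 on IX and 1.07 on X, whereas it lay between -0.04 and 0.21 on the other nuclear chromosomes. Of the 10 cascade genes, *FUS3* lies on chromosome II and *STE18* on chromosome X.

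Deletion of *CCW12* was accompanied by no called change in any of the 10 cascade genes. At an adjusted p under 0.05 from limma with Benjamini-Hochberg adjustment, 0 of 10 passed. Of the 5114 genes tested 154 passed, 3.01% of all (138 higher, 2.70%, and 16 lower, 0.313%). A count of 0 among 10 genes does not set the cascade apart from a share of 3.01%. The share of higher genes among the calls, 89.6%, was 64.1% with arrays centred on their medians and 42.1% after each chromosome was centred. At an unadjusted p under 0.05, 2 of the 10 passed, beside 20.6% of all genes. These were *FUS3* with a higher signal, as for 17.1% of all genes, and *STE12* with a lower one, as for 3.48%. By a fold rule after the methods of the study (mean ratio at least 2-fold with all 4 mutant-to-wild-type ratios in 1 direction), 0 of the 10 passed, beside 12.5% of all genes (10.4% higher and 2.05% lower). The median log2 ratio of the 10 genes was -0.22, and that of all genes tested was 0.19. The signals of the strains did not overlap for 8 of the 10, with 3 higher and 5 lower in *ccw12*Δ, and for 52.5% of all genes (37.7% higher and 14.8% lower).

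**Figure D1:**
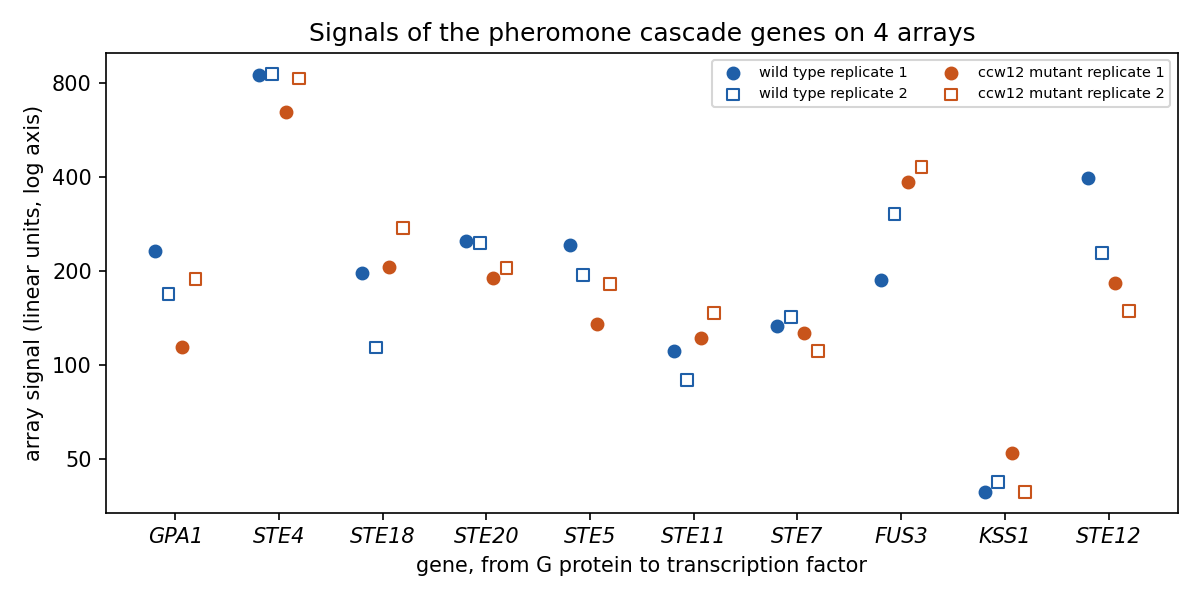
Array signal (linear units on a log axis) of the 10 cascade genes, 1 point per array, with wild type in blue and *ccw12*Δ in orange, and replicate 1 filled and replicate 2 open. The *STE12* signals were 398 and 228 in the wild type and 183 and 149 in *ccw12*Δ, and those of *FUS3* were ordered the other way. Levels are not comparable between genes.

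Of the 3 subunits of the G protein, *STE18* had a higher estimate in *ccw12*Δ and *GPA1* and *STE4* a lower one, and none passed the test. *GPA1* (YHR005C, chromosome VIII) encodes the α subunit, which holds the βγ dimer inactive until the receptor is occupied. Its signals were 232 and 169 in the wild type, beside 114 and 188 in *ccw12*Δ. The groups overlapped, since *ccw12*Δ replicate 2 lay above wild type replicate 2. The log2 ratio was -0.43 (standard error 0.34, 95% interval -1.22 to 0.36, adjusted p = 0.518 from limma), and the *ccw12*Δ arrays differed from each other by more than that, 0.72 on the log2 scale.

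*STE4* (YOR212W, chromosome XV) encodes the β subunit, the part of the dimer that contacts the downstream effectors. It had signals of 847 and 856 in the wild type, and of 644 and 828 in *ccw12*Δ. Both mutant signals were lower, but *ccw12*Δ replicate 2 was nearer to the wild type than to its own replicate. The log2 ratio was -0.22 (standard error 0.28, 95% interval -0.88 to 0.43, adjusted p = 0.696 from limma), an interval that reaches from 0.545-fold to 1.35-fold.

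*STE18* (YJR086W, chromosome X) encodes the γ subunit, which anchors the dimer in the plasma membrane through its lipid groups. Its signals were 197 and 114 in the wild type and 205 and 274 in *ccw12*Δ. The groups did not overlap, yet *ccw12*Δ replicate 1 was only 1.04-fold above wild type replicate 1. With a log2 ratio of 0.66 (standard error 0.35, 95% interval -0.14 to 1.47, adjusted p = 0.333 from limma), *STE18* did not pass. The wild-type arrays themselves differed by 0.79 on the log2 scale for this gene. Without wild type replicate 1, *STE18* was called (log2 ratio 1.06, adjusted p = 0.0116 from limma), and without wild type replicate 2 the log2 ratio was 0.27 (adjusted p = 0.569). In such fits the wild type is 1 array, which is assumed to vary like the *ccw12*Δ arrays that alone give the spread. They called 765 of the 5114 genes without wild type replicate 1 and 1487 without replicate 2.

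The change of *STE18* was above that of both other subunits in all 4 pairings of a mutant with a wild-type array. The mean difference of the log2 ratios was 0.89 against *STE4* (from 0.45 to 1.32 over the 4 pairings) and 1.10 against *GPA1* (from 0.78 to 1.41). After centring of each chromosome these differences were -0.07 and 0.00, and for both the 4 pairings lay on either side of 0. Between *STE4* and *GPA1* the difference was 0.21 (-0.21 to 0.63 over the 4 pairings) before centring and 0.08 (-0.21 to 0.37) after it. Centring here means that every gene was expressed relative to its wild-type mean and that, array by array, the chromosome-wide median of these values was taken off.

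Downstream of the G protein, the p21-activated kinase and the scaffold had lower signals on both *ccw12*Δ arrays, and neither passed. *STE20* (YHL007C, chromosome VIII) encodes the kinase that phosphorylates Ste11p. Its signals were 250 and 246 in the wild type and 190 and 204 in *ccw12*Δ. Its wild-type replicates differed by 0.02 on the log2 scale, and its 4 ratios lay between 0.761 and 0.829. The log2 ratio was -0.33 (standard error 0.26, 95% interval -0.94 to 0.27, adjusted p = 0.515 from limma).

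*STE5* (YDR103W, chromosome IV) encodes the scaffold that binds Ste11p, Ste7p and Fus3p and brings them to the βγ dimer. It had signals of 243 and 194 in the wild type and of 135 and 181 in *ccw12*Δ. The groups did not overlap, with *ccw12*Δ replicate 2 just under wild type replicate 2. The log2 ratio was -0.47 (standard error 0.29, 95% interval -1.16 to 0.21, adjusted p = 0.418 from limma).

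The protein kinases of the module itself did not share a direction. *STE11* (YLR362W, chromosome XII) encodes the MAP kinase kinase kinase, which also serves the high-osmolarity and the filamentation pathways. Its signals were 110 and 89.3 in the wild type and 122 and 146 in *ccw12*Δ, without overlap. The log2 ratio of *STE11* was 0.43 (standard error 0.29, 95% interval -0.25 to 1.11, adjusted p = 0.451 from limma), and it was the only cascade gene on a chromosome other than II and X whose signals were higher in the mutant on all 4 pairings.

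*STE7* (YDL159W, chromosome IV) encodes the MAP kinase kinase that activates both Fus3p and Kss1p. It had signals of 133 and 142 in the wild type and of 126 and 111 in *ccw12*Δ. Both mutant signals lay just under the wild type. The log2 ratio was -0.22 (standard error 0.27, 95% interval -0.86 to 0.42, adjusted p = 0.691 from limma). Relative to *STE7*, *STE11* was higher by 0.65 on the log2 scale (0.22 to 1.07 over the 4 pairings), and relative to the scaffold gene *STE5* by 0.90 (0.81 to 0.99). After centring of each chromosome the differences were 0.59 (0.0074 to 1.18) to *STE7* and 0.84 (0.78 to 0.91) to *STE5*. No test was run on these differences.

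*FUS3* (YBL016W, chromosome II) encodes the MAP kinase of mating, which phosphorylates Far1p and the inhibitors of Ste12p. Its signals were 187 and 305 in the wild type and 386 and 429 in *ccw12*Δ. Both mutant arrays lay above both wild-type arrays, and the gap between the wild-type replicates was 0.71 on the log2 scale. With a log2 ratio of 0.77 (standard error 0.32, 95% interval 0.03 to 1.52), *FUS3* had an unadjusted p of 0.0443 and an adjusted p of 0.228 from limma and did not pass. It was called without wild type replicate 2 (log2 ratio 1.13, adjusted p = 0.00190 from limma), a fit that rests on wild type replicate 1 alone and called 1487 genes, whereas without wild type replicate 1 the log2 ratio was 0.42 (adjusted p = 0.459).

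*FUS3* was the only member read by more than 1 probe set. The second brightest had signals of 67.3 and 249 in the wild type and 342 and 318 in *ccw12*Δ, a log2 ratio of 1.35 (adjusted p = 0.217 from limma when it stood for the gene). Most of that difference came from wild type replicate 1, the array with the highest 3′ to 5′ ratio, and the part of that ratio in it was not tested. The third probe set had signals between 1.0 and 16.7 and was too dim to be read.

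*KSS1* (YGR040W, chromosome VII) encodes the MAP kinase that drives filamentous growth and takes part in mating. It was the dimmest member, with signals of 39.2 and 42.1 in the wild type and 52.0 and 39.2 in *ccw12*Δ. The groups overlapped, and the log2 ratio was 0.15 (standard error 0.38, 95% interval -0.72 to 1.03, adjusted p = 0.850 from limma). The interval reaches from 0.605-fold to 2.04-fold. The change of *FUS3* exceeded that of *KSS1* by 0.62 on the log2 scale (0.04 to 1.20 over the 4 pairings), and by -0.25 (-0.82 to 0.32) after centring of each chromosome.

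*STE12* (YHR084W, chromosome VIII) encodes the transcription factor at the end of the cascade and had the largest estimated decrease of the 10 genes. Its signals were 398 and 228 in the wild type and 183 and 149 in *ccw12*Δ, so that both mutant arrays were below both wild-type arrays. The log2 ratio was -0.87 (standard error 0.34, 95% interval -1.66 to -0.08), or 0.548-fold, with an unadjusted p of 0.0355 and an adjusted p of 0.201 from limma, and *STE12* did not pass. Of the 227 genes tested on chromosome VIII, 6 had a lower ratio. The 4 ratios lay between 0.374 and 0.803, and the wild-type replicates differed by 0.81 on the log2 scale, nearly as much as the strains. Without wild type replicate 2, and so against the array with the highest 3′ to 5′ ratios alone, the log2 ratio was -1.27 (adjusted p = 0.000558 from limma, in a fit that called 1487 genes), and without wild type replicate 1 it was -0.47 (adjusted p = 0.431).

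**Figure D2:**
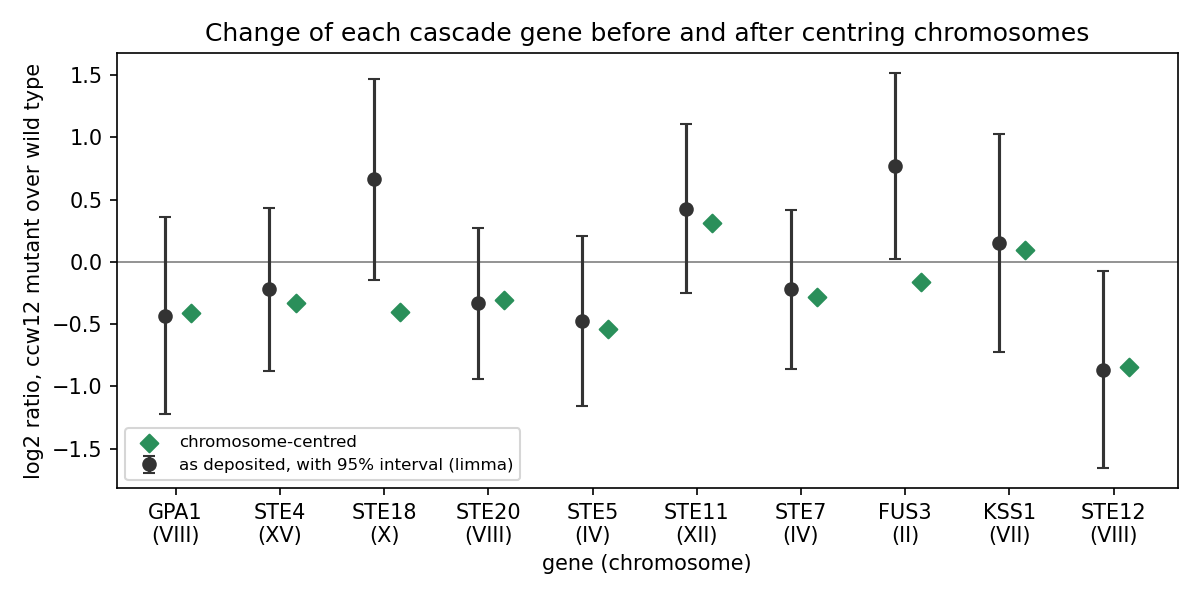
Log2 ratio of *ccw12*Δ to the wild type for each cascade gene with its chromosome in brackets; black points are the limma estimates (2 arrays per strain) with 95% intervals, and green diamonds are the estimates after centring of each chromosome. The intervals of *FUS3* and *STE12* leave out 0 before adjustment over all genes, and the points of *STE18* and *FUS3* lie above 0 before centring and below 0 after it.

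The members with the highest ratios were those on the chromosomes whose genes were raised as a whole. *FUS3* lay 0.17 below the median of chromosome II on the log2 scale, and *STE18* lay 0.40 below the median of chromosome X. All of the 10 genes tested that flank *STE18*, 5 on either side, had a log2 ratio above that of *STE18*, from 0.69 to 1.68 with a median of 1.16. Around *FUS3*, 9 of 10 flanking genes had a log2 ratio above 0 and 6 of 10 lay above *FUS3*, with a median of 0.87. The flanking genes of *STE12* had a median log2 ratio of -0.14, with 9 of 10 above *STE12*, and those of *STE11* had a median of -0.06, with 2 of 10 above *STE11*.

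After centring of each chromosome, 8 of the 10 members had a log2 ratio below 0, beside 2552 of the 5114 genes tested. *STE18* was then at -0.41 (standard error 0.36, adjusted p = 0.657 from limma) and *FUS3* at -0.16 (standard error 0.29, adjusted p = 0.849). *STE12* stayed at -0.84 (standard error 0.36, adjusted p = 0.425), and the members above 0 were *STE11* at 0.31 and *KSS1* at 0.09. The median of the 10 genes was -0.32 in this setting and that of all genes 0.00, and 0 of the 10 passed at an unadjusted p under 0.05. The sign of the estimates of *FUS3* and *STE18* thus depended on whether the shift of their chromosomes was subtracted.

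**Figure D3:**
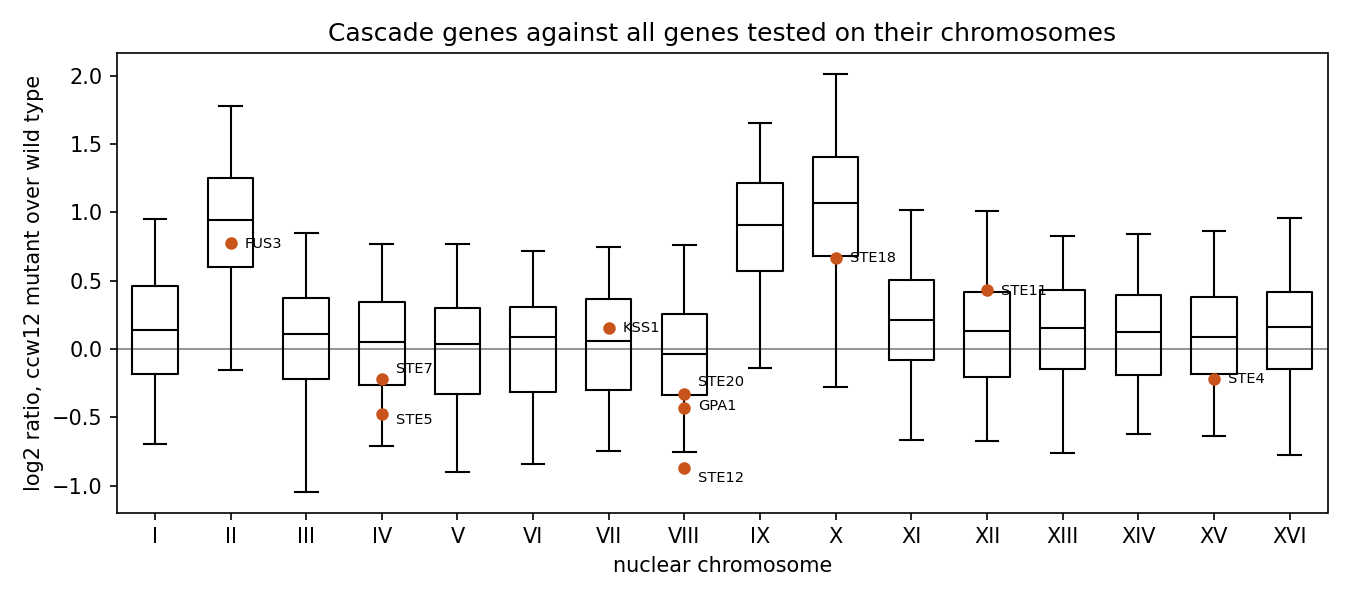
Log2 ratio of *ccw12*Δ to the wild type for all genes tested, by nuclear chromosome (box, quartiles and median; whiskers, 5th and 95th percentiles), with the cascade genes as orange points. *STE18* and *FUS3* are the highest points of the cascade but lie below the medians of chromosomes X (1.07) and II (0.94), and *STE12* lies below the whisker of chromosome VIII.

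Upstream of the cascade, the α-factor gene *MF(ALPHA)2* fell in *ccw12*Δ. Of the 6 receptor and pheromone genes listed, 5 were tested, 1 was lower and 4 did not pass. *MF(ALPHA)2* had signals of 9247 and 8124 in the wild type and 2791 and 3547 in *ccw12*Δ (log2 ratio -1.46, standard error 0.22, adjusted p = 0.0322 from limma). *MF(ALPHA)1*, the major α-factor gene, had signals of 10432 and 11687 beside 9040 and 9340. *STE3*, which encodes the **a**-factor receptor of α cells, had 1840 and 2985 in the wild type and 1432 and 1331 in *ccw12*Δ, with a log2 ratio of -0.76 and an adjusted p of 0.208 from limma. The genes of the other mating type were dim or did not pass: *MFA1* had signals between 33.4 and 117, *MFA2* between 205 and 271, and the α-factor receptor gene *STE2* between 15.9 and 40.0.

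Of 6 genes for adaptors and polarity factors, *FAR1* was higher and 5 did not pass. Far1p links the βγ dimer to the polarity machinery and inhibits the G1 cyclin-dependent kinase. *FAR1* had signals of 974 and 1016 in the wild type and 2241 and 2402 in *ccw12*Δ (log2 ratio 1.22, standard error 0.25, adjusted p = 0.0494 from limma). It lies on chromosome X, and after centring of each chromosome its log2 ratio was 0.15 (adjusted p = 0.812). *STE50*, which encodes the adaptor of Ste11p, had signals of 59.8 and 50.2 beside 61.1 and 64.5.

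Of 8 genes for inhibitors of the pathway, 7 were tested and none passed at an adjusted or an unadjusted p under 0.05 (limma), with a median log2 ratio of 0.09. *BAR1*, coding for the protease of α-factor, was too dim to be tested. *SST2*, coding for the regulator that stimulates the GTPase of Gpa1p, had signals of 555 and 953 in the wild type and 572 and 626 in *ccw12*Δ, which overlapped. *MSG5*, coding for a phosphatase of Fus3p, had 188 and 177 beside 201 and 188. *DIG1* and *DIG2* encode the inhibitors of Ste12p. *DIG1* had signals of 230 and 305 beside 358 and 437, and *DIG2* had 50.9 and 34.8 beside 70.2 and 60.6 (log2 ratios 0.58 and 0.63, adjusted p = 0.315 and 0.382 from limma). Both were above the wild type without overlap, as for 37.7% of all genes, and the other 5 inhibitor genes tested overlapped. Of 6 genes for the lipid modification of the G protein subunits, none passed at an adjusted or an unadjusted p under 0.05 (limma), and their median log2 ratio was 0.07.

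Below the cascade stand the genes that pheromone induces. Of 15 listed, 13 were tested, 3 were lower and 10 did not pass, and their median log2 ratio was -1.22 beside 0.19 for all genes. At an unadjusted p under 0.05, 9 of the 13 were lower, beside 3.48% of all genes, and none was higher. By the fold rule 8 were lower, beside 2.05% of all genes. Of the 15 genes, 8 stand among those that the study chose on these samples, so that the list is not independent evidence of its direction. The list leaves out *PRM5* and *PRM10*, pheromone-regulated genes that the study reported as higher in *ccw12*Δ. The lack of higher genes thus holds for the listed genes alone. Each of the 4 α-cell markers had lower signals in *ccw12*Δ without overlap, as for 14.8% of all genes. Their log2 ratios ranged from -1.46 to -0.26, and of the 4 only *MF(ALPHA)2* passed. After centring of each chromosome *SAG1*, on chromosome X, was called (log2 ratio -1.915, adjusted p = 0.0430 from limma). *MF(ALPHA)2* was then not called (log2 ratio -1.52, adjusted p = 0.0507 from limma). The summed signal of the 4 α-cell markers was 32818 and 31515 in the wild type and 19359 and 19226 in the mutant. The summed signal of the 6 **a**-cell markers was 368 and 355 beside 510 and 424. *BAR1*, on chromosome IX, was at 1.7 and 1.2 beside 40.3 and 36.2, and *STE2* at 15.9 and 18.6 beside 30.4 and 40.0. Both were too dim to be tested, as was *AGA2*, at 19.2 and 14.6 beside 26.1 and 22.6. The signals of *MFA1* and *STE6* overlapped between the strains, and *MFA2* had a log2 ratio of 0.21 and did not pass. The part of these cell-type genes in the result was not tested. *PRM3*, needed for nuclear fusion, had signals of 126 and 137 in the wild type and 48.0 and 31.4 in *ccw12*Δ (log2 ratio -1.76, standard error 0.35). *FIG1*, coding for a membrane protein of mating, had 466 and 643 beside 176 and 211 (log2 ratio -1.51, standard error 0.30, adjusted p = 0.0452 from limma for both genes). *AGA1*, coding for the anchor subunit of **a**-agglutinin, had 5391 and 4988 beside 2202 and 2265 (log2 ratio -1.22, standard error 0.22, adjusted p = 0.0401).

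The filamentation branch, which shares *STE20*, *STE11*, *STE7* and *KSS1*, had 6 listed genes, of which 1 was lower and 5 did not pass. *FLO11*, coding for a flocculin of invasive growth, had signals of 969 and 782 in the wild type and 258 and 289 in *ccw12*Δ (log2 ratio -1.67, standard error 0.28, adjusted p = 0.0381 from limma). *TEC1*, which encodes the partner of Ste12p at filamentation genes, lies on chromosome II and had signals of 1752 and 1411 beside 1256 and 1539. Its groups overlapped, and its log2 ratio was -0.18 (adjusted p = 0.752). The log2 ratio of *TEC1* after centring of each chromosome was -1.11 (adjusted p = 0.185 from limma).

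Of 10 genes of the cell wall integrity and high-osmolarity MAP kinase modules, 2 were higher and 8 did not pass. These were *PBS2*, the MAP kinase kinase of the high-osmolarity pathway, with signals of 144 and 74.1 in the wild type and 379 and 514 in *ccw12*Δ (log2 ratio 2.10, adjusted p = 0.0401), and *BCK1*, the MAP kinase kinase kinase of cell wall integrity, with 153 and 148 beside 479 and 474 (log2 ratio 1.66, adjusted p = 0.0325 from limma). Both lie on chromosome X, and after centring of each chromosome their log2 ratios were 1.03 and 0.59 (adjusted p = 0.393 and 0.415). At an unadjusted p under 0.05 (limma), 4 of the 10 were higher, beside 17.1% of all genes. *SLT2*, on chromosome VIII, had log2 ratios of 0.89 before and 0.91 after centring (adjusted p = 0.113 and 0.260 from limma). *PKC1*, on chromosome II, had 0.74 and -0.19 (adjusted p = 0.205 and 0.801 from limma). The median of this list was 0.43 before and 0.27 after centring. Whether these lists differ from the cascade was not tested.

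Each of these 8 calls (*MF(ALPHA)2*, *FAR1*, *PRM3*, *FIG1*, *AGA1*, *FLO11*, *PBS2* and *BCK1*) was lost without at least 1 of the *ccw12*Δ arrays, with adjusted p-values between 0.0569 and 0.402 from limma where it was lost. All 8 were also lost when dim genes were kept in the test (adjusted p = 0.0511 to 0.0710). Of the 8, 6 were lost with arrays centred outside chromosomes II, IX and X, 5 without the trend, 4 with arrays centred at their medians and 2 by quantile normalization. After centring of each chromosome *FIG1* at -2.44 and *FLO11* at -2.59 were called, and the other 6 were not.

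**Figure D4:**
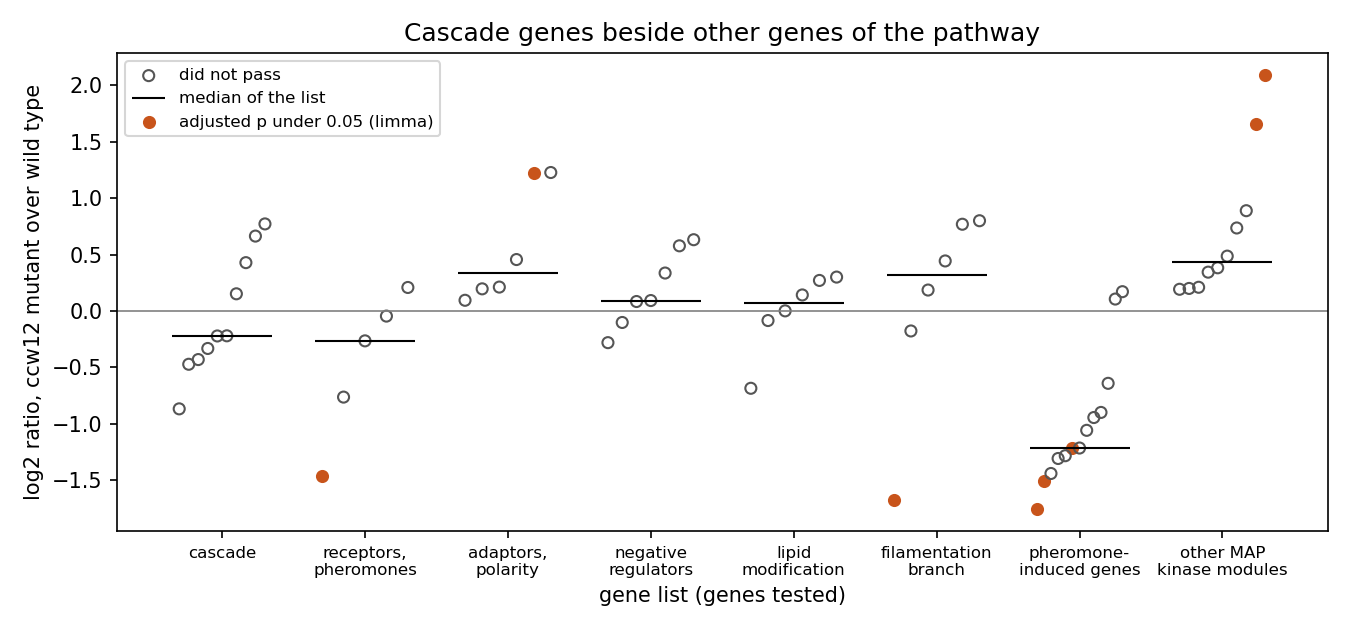
Log2 ratio of *ccw12*Δ to the wild type for the genes tested in each list, 1 point per gene, with orange points for an adjusted p under 0.05 (limma) and a black line at the median of the list. The cascade has no orange point and a median of -0.22, whereas the pheromone-induced genes have a median of -1.22 with 3 orange points.

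Of the genes listed as haploid-specific, 11 in all, each was tested, and 6 are cascade members (*GPA1*, *STE4*, *STE18*, *STE5*, *FUS3* and *STE12*). No diploid cells were measured, so the haploid specificity of the listed genes was not tested. The list held 1 higher gene, *FAR1*, and 10 that did not pass, with 7 log2 ratios above 0 and 4 below. The members in it ranged from -0.87 for *STE12* to 0.77 for *FUS3*, with 4 below 0 and 2 above. After centring of each chromosome all 6 had a log2 ratio below 0, from -0.84 for *STE12* to -0.16 for *FUS3*, and none passed. The median of the list was 0.32 before and -0.16 after centring.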

How the data were processed

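The authors converted the array scans with GCOS, and MAS5 is named as the tool, without a version, in the submitters' processing notes. The deposited intensity values are linear signals, 1 for each probe set on each array, and were scaled by the authors to a target not given in the sources used here. Detection and change calls were not used here. Precision is limited by the 2 arrays per strain.

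Of 9335 probe sets, 60 were controls, 6504 named 1 gene, 328 several and 2443 none. Chromosomes, and the order of the genes tested along them, came from the RefSeq table (R64), and no coordinates are printed. Signals of 0 (19 values) were raised to 0.1 before log2. A gene was tested if its mean log2 signal reached the 25th percentile of all non-control probe sets. The test was limma (version 3.58.1, R 4.3.3; lmFit, eBayes with a trend, prior degrees of freedom 5.59) over all 4 arrays, with Benjamini-Hochberg adjustment over 5114 genes. Its p-values rest on the spread between pools of RNA preparations and on a spread pooled over genes. The calculation was tested on simulated data. Python 3.11.15 and matplotlib 3.10.9 drew the plots.

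The members and gene lists were chosen with earlier results of these data known. Named genes were all members, the receptor and pheromone genes, direct partners, *CCW12*, and for other lists up to 2 rises and 2 falls that passed. *SLT2* and *PKC1* were added later, for an unadjusted p under 0.05 from limma. Alternatives were quantile normalization, centring of arrays or chromosomes, other filters, an offset of 7.2, the mean over probe sets, no trend, the replicate number as a block and each array left out. A filter at the 25th percentile of the single-gene probe sets, a crossed block and the second probe set of *FUS3* were added after seeing the data.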

Additional observations from a re-analysis of the deposited data

How the results depend on the processing

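None of the 10 cascade genes was called under any alternative that kept all 4 arrays, and 0 to 2 were called with 1 array left out: *FUS3* and *STE12* without wild type replicate 2, and *STE18* without wild type replicate 1. These fits, with 1 wild-type array and the spread of the *ccw12*Δ arrays alone, called 1487 and 765 of 5114 genes. Over all alternatives *GPA1*, *STE4*, *STE20*, *STE5*, *STE7* and *STE12* kept a log2 ratio below 0 and *STE11* one above 0. After centring of each chromosome *FUS3* was at -0.16 and *STE18* at -0.41. *KSS1* was at -0.12 with arrays centred at their medians, and with 1 array left out it ranged from -0.051 (without *ccw12*Δ replicate 1) to 0.36 (without *ccw12*Δ replicate 2).

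The number of genes called, 154 as deposited, fell to 86 by quantile normalization, to 39 by centring arrays at their medians, to 37 with arrays centred outside chromosomes II, IX and X and to 19 after centring of each chromosome. It was 39 without a filter on dim genes, 242 with a filter at the 50th percentile, 267 with one at the 25th percentile of the single-gene probe sets and 90 without the trend, and it ranged from 38 to 1487 with 1 array left out. The median log2 ratio of all genes moved from 0.19 to 0.04 by quantile normalization, to -0.08, 0.08 and 0.00 by the 3 ways of centring. By the fold rule, 638 genes passed as deposited (83.5% of them higher), 304 after centring of each chromosome (40.8%) and 595 to 1019 with 1 array left out. Quantile normalization gave a share of 72.3% higher, and centring arrays at their medians 57.3%. The cause of these shifts was not tested.

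With the replicate number as a block, 372 genes and 0 cascade members were called. Same-numbered arrays deviated with a correlation of -0.13 across genes, and nothing in the labels ties them, so the numbers were not taken as pairs. The crossed block gave 400 genes and 0 cascade members. The 2 arrays per strain limit all of these counts, as does the low signal of *KSS1*, which was left out by both stricter filters; the filter at the 50th percentile also left out *STE11* and *STE7*.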
